A study of Homo sapiens with 8 samples.

Results

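Genes of the NRF2 antioxidant programme were followed in A2058 melanoma cells treated with TGFβ1. They were chosen by name as 41 genes: NRF2 itself and its sensor KEAP1, 23 known NRF2 target genes, and 16 other enzymes of glutathione and peroxide metabolism. Of the 41 genes, 37 had a named probe, among 20045 genes measured in all. OSGIN1 and FTH1 among the targets and PRDX2 and PRDX5 among the other enzymes were not analysed here. A2058 is a human melanoma cell line. RNA was taken from 8 wells, 4 treated with TGFβ1 and 4 given control vehicle (titled untreated), with 1 Illumina HT-12 array per well. The cells of all 8 wells had been transfected with empty vector, as the control arm of a larger experiment. The methods name 5 or 10 ng/ml TGFβ1 in serum-free media for 24 h, without saying which dose these arrays had. Per the methods, all wells came from a single plating, so a p-value here reflects variation among parallel wells and not among cultures. In RNA from whole wells, a smaller number of cells carrying a transcript and less of it per cell cannot be told apart.

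NRF2, encoded by NFE2L2, is a transcription factor that KEAP1 holds in the cytoplasm and hands to the proteasome. When oxidants or electrophiles modify KEAP1, NRF2 escapes, enters the nucleus and binds antioxidant response elements with a small MAF partner. Its targets make glutathione, recycle thioredoxin, reduce quinones and carbonyls, and supply NADPH. Since NRF2 is controlled largely through the stability of its protein, its mRNA need not follow its activity, and no protein was measured here.

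The values are log2 signals that the authors had centred, so that each probe averages 0 over the 8 arrays. The mean of a gene's vehicle wells is therefore the negative of the mean of its TGFβ1 wells, and a positive value means above the gene's own average. No signal level is kept, so genes cannot be ranked by abundance, a dim probe cannot be told from a bright one, and the identity of the cells cannot be read from the level of a marker. Changes are given on the log2 scale as TGFβ1 minus vehicle. They were tested two-sided in limma across all 20045 genes and called at a Benjamini-Hochberg adjusted p under 0.05. As a check of the labels, 7 of 9 measured genes known to respond to TGFβ were higher under TGFβ1, with TGFBI at 2.40. BAMBI was lower at −0.32 (adjusted p = 0.018), and SKIL was not called at 0.24 (adjusted p = 0.090). Of the markers of other cells, 0 of 9 for leukocytes, 1 of 9 for keratinocytes (KRT10, higher), 1 of 10 for fibroblasts (FAP, higher) and 0 of 10 for endothelium were called. At an unadjusted p under 0.05 the counts were 0, 1, 3 and 1, and SAM called 0, 1, 1 and 0. Of 9 melanocytic markers 3 were called, MITF, SOX10 and TYRP1, all lower. At an unadjusted p under 0.05 there were 6, of which 5 were lower, and SAM called 2 lower. S100A1 stood at 0.38 (adjusted p = 0.093) and was not called. Of all genes, 3.03% were called higher and 2.67% lower in limma. At an unadjusted p under 0.05, 3135 of the 20045 genes passed, 1612 of them lower. SAM called 462 of them higher and 294 lower.

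Of the 37 measured genes, 6 NRF2 targets fell under TGFβ1, 2 other enzymes rose and 29 were not called, NFE2L2 and KEAP1 among them. Genome-wide 5.7% of genes were called in either direction. Of 21 measured NRF2 targets, 6 were called lower, against 2.67% of all genes that were called lower. These were CBR3, NQO1, SLC7A11, TXNRD1, SRXN1 and AKR1C3. SAM, the test named in the methods, was run here on gene values. It called 3.77% of all genes and 5 of the 37, all of them lower, against 1.47% of all genes lower. Run on probes, SAM did not call SRXN1. None (0 of 21) of the targets was called higher in limma or in SAM, and 1, UGDH, was higher at an unadjusted p under 0.05. The log2 change was below 0 in 18 of the 21 targets, or 85.7%, against 50.6% of all genes. The median change of the 21 was −0.15, against −0.0013 over all genes. Among 14 measured other antioxidant enzymes, 2 were called higher, GPX4 and PRDX4, where 3.03% of all genes were. None (0 of 14) was called lower in limma or in SAM, and 1, CAT, was lower at an unadjusted p under 0.05. Their median change was −0.0098, with 8 of 14 below 0. At an unadjusted p under 0.05, 3135 of all 20045 genes passed, 1612 of them lower. Whether the 2 groups of genes differ was not tested, since the genes were chosen with earlier results known and are not replicates.

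**Figure D1:**
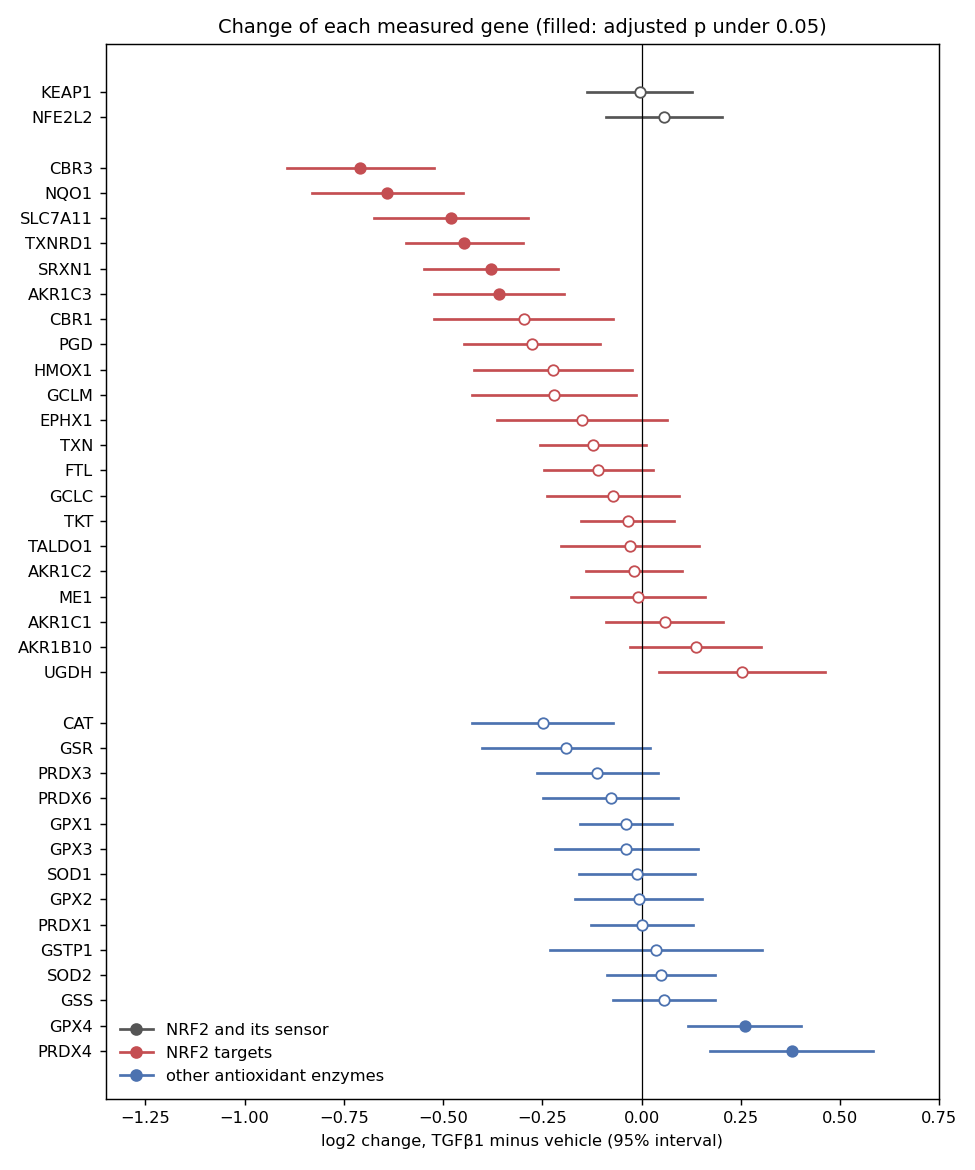
Log2 change under TGFβ1 (x axis) of the 37 measured genes, by group, with the 95% interval from limma as a line and filled points where the adjusted p was under 0.05. The 6 filled targets run from −0.71 for CBR3 to −0.36 for AKR1C3, and the 2 filled enzymes are GPX4 at 0.26 and PRDX4 at 0.38.

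NFE2L2 mRNA stood at −0.14, 0.089, −0.0083 and −0.051 in vehicle replicates 1 to 4 and at 0.059, 0.097, 0.050 and −0.095 in TGFβ1 replicates 1 to 4. The groups overlap over nearly their whole range. Its log2 change was 0.056 (SE 0.068, 95% interval −0.091 to 0.20, adjusted p = 0.81), on 1 probe. KEAP1, the sensor, read −0.0065, 0.020, 0.0076 and −0.012 in the vehicle wells and −0.0063, −0.057, −0.075 and 0.13 in the TGFβ1 wells. The vehicle wells lay within the range of the TGFβ1 wells, which spread more widely. The change of KEAP1 was −0.0047 (SE 0.061, 95% interval −0.14 to 0.13, adjusted p = 0.99), and its 3 probes read −0.043, 0.0040 and 0.025. These intervals leave room for changes in either direction that are smaller than those of the called targets.

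The sequences behind 3 of the called genes are shown to place what was measured. CBR3 and SLC7A11 have 1 probe each, so their falls rest on these stretches of mRNA, and the GPX4 probe is the one that was called. Each has 50 bases and is written 5′ to 3′ as the study's supplementary table gives it, with no capitals because no part is singled out. The genes lie on chromosomes 21, 4 and 19.
CBR3 probe: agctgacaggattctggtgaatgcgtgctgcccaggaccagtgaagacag
SLC7A11 probe: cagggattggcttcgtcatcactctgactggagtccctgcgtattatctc
GPX4 probe: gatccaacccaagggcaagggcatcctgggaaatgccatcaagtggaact

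Quinone and carbonyl reductases held the 2 largest changes. NQO1, which reduces quinones by 2 electrons and is the most widely used readout of NRF2, stood at 0.41, 0.20, 0.25 and 0.42 in the vehicle wells and at −0.25, −0.14, −0.32 and −0.56 in the TGFβ1 wells. Every TGFβ1 well was below every vehicle well, and TGFβ1 replicate 4 was the lowest. The mean was 0.32 ± 0.11 (SD, n = 4) under vehicle and −0.32 ± 0.18 (SD, n = 4) under TGFβ1, a log2 change of −0.64 (SE 0.088, adjusted p = 0.00045) or 1.56-fold lower. This is the mean of 2 probes of unequal change. The first read −1.06 (SE 0.12, adjusted p = 9.2e-06 over all probes) and the second −0.22 (SE 0.080, adjusted p = 0.21). On the first probe the vehicle wells lay between 0.30 and 0.66 and the TGFβ1 wells between −0.99 and −0.28, without overlap. On the second the groups overlap.

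CBR3, a carbonyl reductase of the short-chain dehydrogenase family, had the largest change of the 37 measured genes. Its values were 0.33, 0.18, 0.45 and 0.46 in the vehicle wells and −0.24, −0.39, −0.56 and −0.24 in the TGFβ1 wells, with no overlap. The log2 change was −0.71 (SE 0.086, adjusted p = 0.00014), which is 1.63-fold lower. Its paralogue CBR1 read −0.30 (SE 0.10, adjusted p = 0.15), with groups that overlap, and was not called. AKR1C3, an aldo-keto reductase that acts on steroids and prostaglandins, stood at 0.20, 0.16, 0.34 and 0.0099 in the vehicle wells and at −0.27, −0.24, −0.12 and −0.094 in the TGFβ1 wells. The groups do not overlap, but the lowest vehicle well was close to 0. Its change was −0.36 (SE 0.076, adjusted p = 0.012), and SAM did not call it. Its close relatives were not called, AKR1C1 at 0.059 (adjusted p = 0.80) and AKR1C2 at −0.018 (adjusted p = 0.94). The 6 probes of AKR1C2 ran from −0.21 to 0.12. AKR1C genes are nearly identical in sequence, so signal from one on a probe of another cannot be told apart here. AKR1B10, a related reductase, stood at 0.14 (SE 0.076, adjusted p = 0.45).

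**Figure D2:**
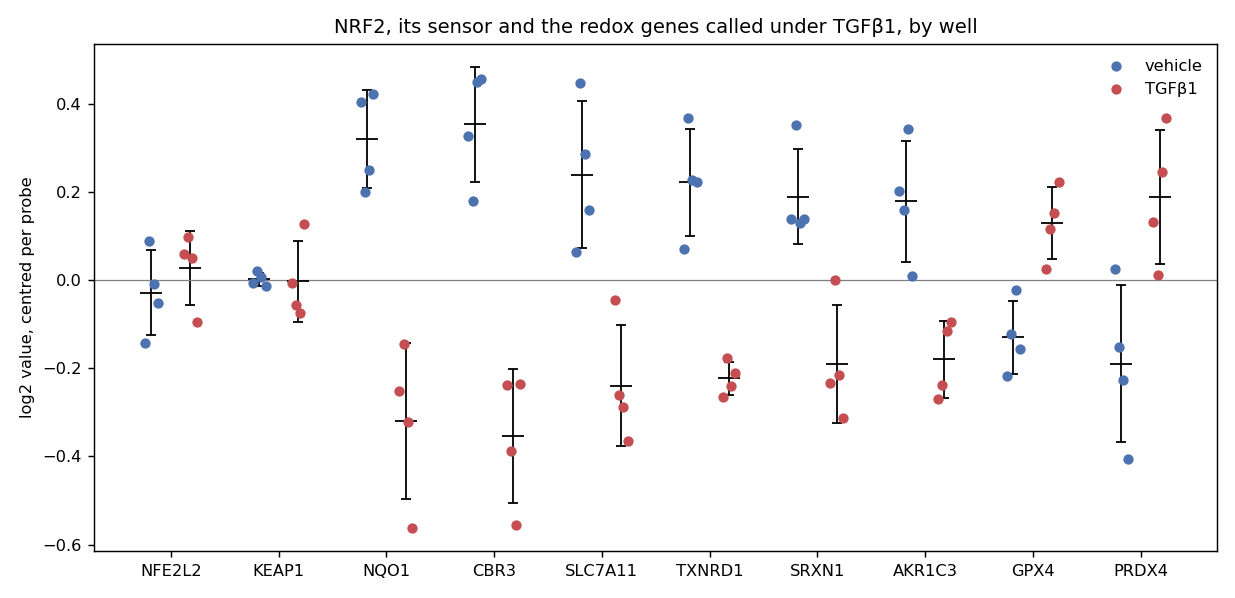
Centred log2 value (y axis) of NFE2L2, KEAP1 and the 8 called genes in each of the 4 vehicle wells (blue) and 4 TGFβ1 wells (red), with mean and SD as bars. The 2 colours separate fully for the 6 targets and GPX4, overlap slightly for PRDX4 and overlap widely for NFE2L2 and KEAP1.

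SLC7A11, TXNRD1 and SRXN1 were called lower, and TXN was not called. SLC7A11, the light chain of the cystine importer that feeds glutathione synthesis, read 0.065, 0.45, 0.29 and 0.16 in the vehicle wells and −0.045, −0.26, −0.29 and −0.37 in the TGFβ1 wells. The groups do not overlap, although vehicle replicate 1 and TGFβ1 replicate 1 lay close together. It changed by −0.48 (SE 0.090, adjusted p = 0.0051), 1.39-fold lower. SLC7A11 is also a target of ATF4, the factor of the amino acid response. Of 15 ATF4 targets 3 were lower and 1 was higher, against 2.67% and 3.03% of all genes. SAM called 2 lower and 1 higher, against 294 lower and 462 higher of all 20045 genes. At an unadjusted p under 0.05 there were 7 lower and 2 higher. Of all 20045 genes 3135 passed that threshold, 1612 of them lower. The part of ATF4 in the change of SLC7A11 was not tested. TXNRD1, the cytosolic thioredoxin reductase, had values of 0.072, 0.37, 0.23 and 0.22 under vehicle and −0.27, −0.18, −0.24 and −0.21 under TGFβ1. The TGFβ1 wells lay close to each other (SD 0.038, n = 4) and all below the vehicle wells (SD 0.12, n = 4). The change was −0.45 (SE 0.068, adjusted p = 0.0011), with its 2 probes at −0.54 (adjusted p = 0.00031 over all probes) and −0.35 (adjusted p = 0.064).

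SRXN1, sulfiredoxin, which repairs overoxidised peroxiredoxins, stood at 0.14, 0.35, 0.13 and 0.14 in the vehicle wells and at −0.23, 9.7e-05, −0.22 and −0.31 in the TGFβ1 wells. One well in each group stood above its fellows, and the groups do not overlap. It changed by −0.38 (SE 0.078, adjusted p = 0.0096). Thioredoxin itself, TXN, was not called at −0.12 (SE 0.062, adjusted p = 0.38), although its wells did not overlap either. In all, 9 of the 37 genes had groups that did not overlap, against 10.3% of all genes. Of the 21 targets, 8 had TGFβ1 wells wholly below the vehicle wells, against 5.07% of all genes. Of these 8, TXN and PGD were not called.

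The enzymes of glutathione synthesis were not called. GCLC, the catalytic subunit of the rate-limiting ligase, read −0.14, 0.15, 0.059 and 0.082 under vehicle and −0.098, 0.0058, 0.10 and −0.15 under TGFβ1. The groups lie over each other. The change was −0.071 (SE 0.077, 95% interval −0.24 to 0.096, adjusted p = 0.78), with both probes of like size at −0.086 and −0.057. GCLM, its modifier subunit, stood at 0.036, −0.0045, 0.039 and 0.37 in the vehicle wells and at 0.098, −0.13, −0.30 and −0.10 in the TGFβ1 wells. Vehicle replicate 4 was far above the others, and TGFβ1 replicate 1 lay among the vehicle wells. GCLM changed by −0.22 (SE 0.096, adjusted p = 0.28). The next enzyme, GSS, glutathione synthetase, stood at 0.057 (SE 0.059, adjusted p = 0.77).

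HMOX1, heme oxygenase, was at 0.33, 0.24, −0.0017 and −0.12 in the vehicle wells and at 0.0041, −0.11, −0.14 and −0.20 in the TGFβ1 wells. The vehicle wells spread widely (SD 0.21, n = 4) and 2 of them lay within the TGFβ1 range. The change of −0.22 (SE 0.093, adjusted p = 0.24) was not called. FTL, the ferritin light chain, read −0.11 (SE 0.064, adjusted p = 0.48), with its 2 probes at −0.12 and −0.10. Ferritin has many processed pseudogenes, so its probes are uncertain.

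The enzymes that supply NADPH were not called. PGD, of the oxidative pentose phosphate pathway, came closest, at −0.28 (SE 0.079, adjusted p = 0.063). TKT and TALDO1, of the non-oxidative branch, stood at −0.035 (adjusted p = 0.87) and −0.029 (adjusted p = 0.94), and ME1, malic enzyme, at −0.0082 (adjusted p = 0.98). The probes of TALDO1 differed in sign, −0.12 and 0.060. Of the remaining targets, EPHX1, the microsomal epoxide hydrolase, was at −0.15 (adjusted p = 0.56). UGDH, which makes UDP-glucuronate, had the highest value of all targets at 0.25 (SE 0.097, adjusted p = 0.19). Vehicle replicate 3 of UGDH was far below the other vehicle wells, and the groups overlap.

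**Figure D3:**
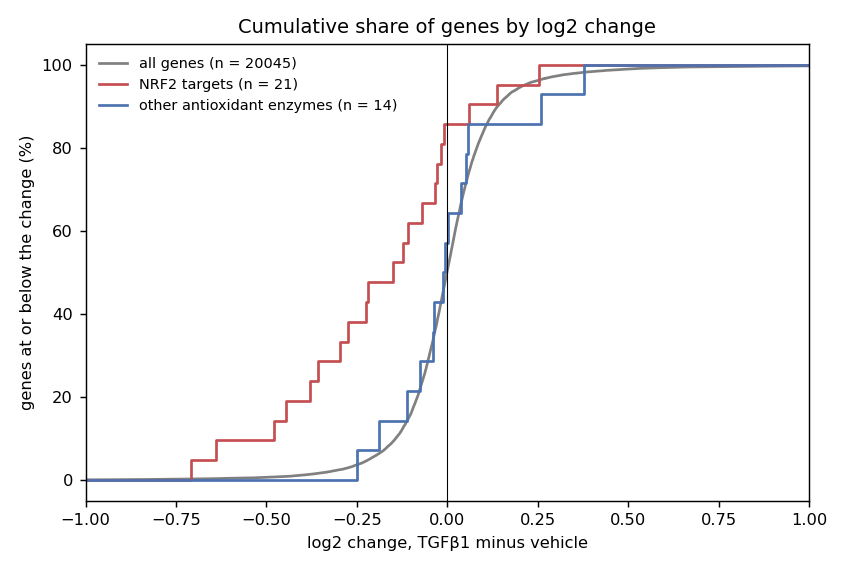
Cumulative share of genes (y axis, percent) at or below each log2 change under TGFβ1 (x axis), for 21 NRF2 targets, 14 other antioxidant enzymes and all 20045 genes. The targets lie to the left, with a median of −0.15, and the other enzymes follow the curve of all genes around 0.

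Peroxide and superoxide enzymes outside the NRF2 target group showed 2 rises. GPX4, the peroxidase that reduces lipid hydroperoxides and holds back ferroptosis, stood at −0.22, −0.12, −0.022 and −0.16 in the vehicle wells and at 0.027, 0.12, 0.15 and 0.22 in the TGFβ1 wells. No TGFβ1 well was below a vehicle well, and GPX4 was the 1 of 14 enzymes whose groups did not overlap with TGFβ1 higher, against 5.2% of all genes. The change was 0.26 (SE 0.066, adjusted p = 0.032), 1.20-fold higher. Its 2 probes disagreed, at 0.39 (SE 0.086, adjusted p = 0.010 over all probes) and 0.13 (SE 0.084, adjusted p = 0.67). PRDX4, the peroxiredoxin of the endoplasmic reticulum, read 0.026, −0.15, −0.23 and −0.40 under vehicle and 0.13, 0.012, 0.24 and 0.37 under TGFβ1. The groups overlap slightly, since vehicle replicate 1 was above TGFβ1 replicate 2. It changed by 0.38 (SE 0.095, adjusted p = 0.031), 1.30-fold higher.

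These 2 rises were less firm than the 6 falls. SAM called neither gene, although it called the first GPX4 probe. The call of GPX4 ended without any 1 of vehicle replicates 1, 2 and 4 and TGFβ1 replicates 2, 3 and 4 (highest adjusted p = 0.094). That of PRDX4 ended without any 1 of vehicle replicates 2, 3 and 4 and TGFβ1 replicates 1, 3 and 4 (highest adjusted p = 0.095). Each of the 6 falls was still called without any 1 array, with adjusted p values of at most 0.043.

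Of the cytosolic and mitochondrial peroxiredoxins, PRDX1 stood at 0.00082 (95% interval −0.13 to 0.13), PRDX3 at −0.11 (−0.26 to 0.042) and PRDX6 at −0.077 (−0.25 to 0.093). The other glutathione peroxidases lay near 0, GPX1 at −0.040, GPX2 at −0.0076 and GPX3 at −0.038. SOD1 and SOD2, the cytosolic and mitochondrial superoxide dismutases, were at −0.012 (95% interval −0.16 to 0.13) and 0.050 (−0.086 to 0.19). None of these passed the test, and each interval excludes a change as large as that of NQO1. The 2 probes of GPX1 differed in sign, 0.037 and −0.12. CAT, catalase, was at −0.25 (SE 0.082, adjusted p = 0.12), and its 2 probes read −0.44 (adjusted p = 0.062 over all probes) and −0.058. GSR, which regenerates reduced glutathione, read −0.19 (SE 0.098, adjusted p = 0.39), with probes at −0.30 and −0.075. GSTP1, a glutathione transferase, stood at 0.037 (SE 0.12, adjusted p = 0.95), and its vehicle wells ran from −0.36 to 0.42, the widest of its group.

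**Figure D4:**
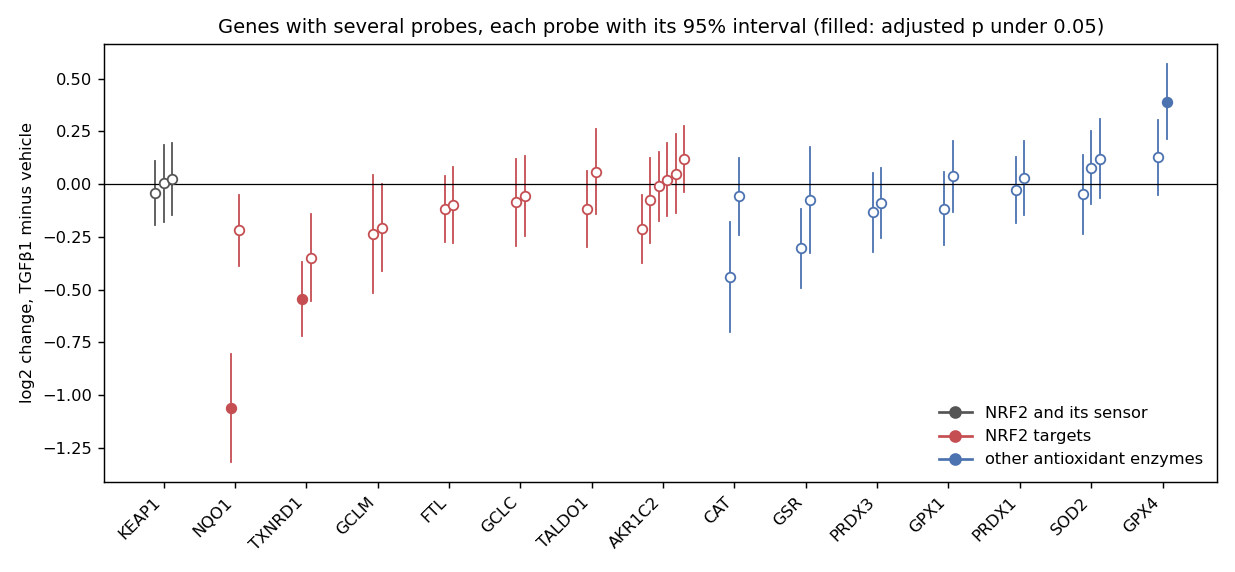
Log2 change under TGFβ1 (y axis) of each probe of the 15 genes with several probes, with the 95% interval as a line and filled points where the adjusted p over all probes was under 0.05. NQO1 shows the widest gap, −1.06 against −0.22, while both GCLC probes lie close to 0.

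Counted by probe, 58 probes read the 37 genes. Of these 6 were called lower and 2 higher at an adjusted p under 0.05 over all 47315 probes, where 3.33% of all probes were called, 1.53% lower and 1.8% higher. SAM called 5 of the 58, 4 lower and 1 higher, and 2.07% of all probes. The 6 lower in limma belong to the same 6 targets, 1 probe each. SAM did not call those of SRXN1 and AKR1C3. Of the 15 genes with several probes, NQO1, TXNRD1 and GPX4 had 1 called probe and 1 that was not called. GSR, PRDX1 and GSTP1 are also induced by NRF2 in some cells, and counting them with the targets left 6 of 24 lower and a median change of −0.14.

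The mean of the 21 targets on an array summarises the group. It was 0.078, 0.10, 0.092 and 0.12 in vehicle replicates 1 to 4 and −0.084, −0.077, −0.12 and −0.11 in TGFβ1 replicates 1 to 4, all 4 below every vehicle well. For the 14 other enzymes it was 0.056, 0.0060, −0.046 and −0.025 under vehicle and −0.046, 0.013, 0.019 and 0.022 under TGFβ1, with overlapping groups. The mean of the targets includes the 6 that were called. The 15 targets not called had a smaller median change of −0.071, with 12 below 0 and 3 above. Whether other sets of 21 genes separate as fully was not tested.

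Antioxidant response elements were searched by their core, TGAC and GCA parted by any 3 bases on either strand, in RefSeq promoters from 250 bases before to 50 after each gene's start (GRCh38.p14). Of the 37 measured genes 28 matched a promoter, and 7 of these held the motif, against 3.94% of all 27305 genes and 3.18% of all 35116 promoters of that length. Among the targets it was in 4 of 17, and among the called targets in 1 of 4, TXNRD1. The windows are shown because they place a textbook element in genes that were called and in genes that were not. Each has 30 bases, in the direction in which the motif reads, with the motif in capitals.
TXNRD1, chr12:104286919-104286948, minus strand: agagtcagaaTGACAAAGCAgaaatccact
GCLM, chr1:93909446-93909475, plus strand: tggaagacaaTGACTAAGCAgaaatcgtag
CBR1, chr21:36069854-36069883, minus strand: ccagctagccTGACTTTGCAgaacccgcag
EPHX1, chr1:225825266-225825295, plus strand: tgagattggcTGACTTGGCAggactgtgca
GSTP1, chr11:67583736-67583765, plus strand: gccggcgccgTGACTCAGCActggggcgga
GPX2, chr14:64942849-64942878, plus strand: atccccaggaTGACTTAGCAaaaacaggtc
KEAP1, chr19:10502784-10502813, plus strand: caggtcaccaTGACTAAGCAgagccgggcg

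The motif's edge farther from the gene's start lies between 32 bases (KEAP1) and 160 bases (CBR1) before that start. The GSTP1 match also holds TGACTCA, the AP-1 motif. Of the 7 genes, TXNRD1 was called, GCLM, CBR1 and EPHX1 had changes of −0.22, −0.30 and −0.15 that were not, and GSTP1, GPX2 and KEAP1 lay between −0.0076 and 0.037. A match is no proof of binding, and a gene without one may have its element outside this window.

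Other genes of the pathway were taken from lists, to be read against the 3.03% of all genes called higher and the 2.67% called lower. Counts at an unadjusted p under 0.05 are to be read against 3135 of all 20045 genes, 1612 of them lower. Those of SAM are to be read against 462 higher and 294 lower. Of 14 measured partners and regulators of NRF2, 1 was higher and 1 was lower, with 2 higher and 2 lower at an unadjusted p under 0.05. MAF, a large MAF factor that can bind related elements, rose by 0.54 (SE 0.073, adjusted p = 0.00040), on 1 of its 2 probes (1.04 against 0.038). SQSTM1, the autophagy receptor p62 that binds KEAP1 and is itself an NRF2 target, fell by 0.36 (SE 0.090, adjusted p = 0.033). Its call ended without any 1 of vehicle replicates 1, 2 and 3 and TGFβ1 replicates 2 and 3 (highest adjusted p = 0.11), and SAM did not make it.

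A further 19 measured NRF2 targets held 2 that were lower and 0 that were higher in limma. At an unadjusted p under 0.05 there were 5 lower and 2 higher, and SAM called 1 lower and 0 higher. BLVRB, biliverdin reductase B, fell by 0.49 (SE 0.076, adjusted p = 0.0012). MGST1, a membrane-bound glutathione transferase, fell by 0.29 (SE 0.064, adjusted p = 0.016), on 2 of its 4 probes (−0.41 and −0.40, against −0.26 and −0.081), a call that ended without vehicle replicate 3 or 4 or TGFβ1 replicate 1 (highest adjusted p = 0.055) and that SAM did not make. The median of this list was −0.029, near that of all genes.

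Of 32 genes of glutathione transfer and handling, 1 was higher and 0 were lower in limma and in SAM. At an unadjusted p under 0.05, 7 were higher and 2 lower, where 3135 of all 20045 genes passed, 1612 of them lower. The 1 called was SLC3A2, the heavy chain that pairs with SLC7A11 and with other transporters. It rose by 0.26 (SE 0.061, adjusted p = 0.019), on 1 of its 2 probes (0.42 against 0.11). Its call ended without vehicle replicate 4 or TGFβ1 replicate 1 (highest adjusted p = 0.065). The chains of the cystine importer thus read in opposite directions, SLC7A11 at −0.48 and SLC3A2 at 0.26.

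In the thioredoxin system and thiol repair, 1 of 21 genes was higher and 3 were lower, against 3.03% and 2.67% of all genes. SAM called 1 higher and 0 lower. At an unadjusted p under 0.05 there were 3 higher and 4 lower, where 3135 of all 20045 genes passed, 1612 of them lower. MSRB2, a mitochondrial methionine sulfoxide reductase, rose by 0.54 (SE 0.061, adjusted p = 7.5e-05). TXNIP, which binds and inhibits thioredoxin, fell by 0.36 (SE 0.079, adjusted p = 0.013), a call that ended without TGFβ1 replicate 2 (adjusted p = 0.051) and that SAM did not make. SESN3, a sestrin, fell by 0.44 (SE 0.10, adjusted p = 0.021), and PRXL2B, a peroxiredoxin-like protein, by 0.37 (SE 0.096, adjusted p = 0.036). Both had overlapping groups and were not called by SAM. The call of SESN3 ended without any 1 of vehicle replicates 1, 3 and 4 and TGFβ1 replicates 2 and 3 (highest adjusted p = 0.070). That of PRXL2B ended without any 1 of vehicle replicates 1, 2 and 3 and TGFβ1 replicates 1, 2 and 3 (highest adjusted p = 0.12).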

How the data were processed

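RNA from 4 vehicle and 4 TGFβ1 wells was measured on Illumina HT-12 arrays. The deposited values are log2 values, from which the authors had removed control probes after quantile normalisation, and which they then centred over genes and over arrays. Probe means in the deposited table are 0 to within 1.57e-07, and array medians lay between −0.00504 and −0.00147. The log base is taken from the methods. No detection value or background is kept, so no filter on dim probes was possible, and the number of arrays limits the precision.

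Of 47315 probes 30105 had 1 gene symbol in the platform annotation, 8 had several and 17202 had none. The value of a gene is the mean of its probes. The groups were compared without a block in limma 3.58.1 (lmFit, eBayes; R 4.3.3), with Benjamini-Hochberg adjustment across all genes or all probes. On simulated data with 200 of 20045 genes changed, the fit recovered 11.9% of genes changed by 0.25, 77.6% at 0.5 and 100% at 1. These rates hold for that setting, where fewer genes changed than the 5.7% called in the data. Lists were summarised in Python 3.11.15 (numpy 2.4.6, pandas 2.3.3, scipy 1.17.1) and plotted in matplotlib 3.10.9.

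The members and lists were chosen with earlier results of these data known. Every member is named, with all wells for NFE2L2, KEAP1, NQO1, HMOX1, GCLC, GCLM, SLC7A11, TXNRD1 and each called gene. In each further list up to 3 called genes per direction, those of largest change, are named, and genes whose probes disagree are given by probe. Alternatives were SAM, coded anew at a median of 10 false positives, quantile normalisation again, a shift to equal medians, array weights, a block for replicate number, a stricter threshold of 0.01, the probe with the largest SD, any called probe, another split of the classes, and leaving out each array.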

Additional observations from a re-analysis of the deposited data

Results flagged for a closer look

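In 7 of 74 groups of 4 wells, 1 well lay far from the others by Dixon's test, which chance alone passes in about 1 of 20 groups. Vehicle replicate 4 was high for GCLM (0.37, the next 0.039) and TXN (0.13, the next 0.045) and low for GSS (−0.12, the next −0.0064). Vehicle replicate 2 was high for SRXN1 (0.35, the next 0.14) and low for PRDX1 (−0.10, the next 0.025). Vehicle replicate 3 was low for UGDH (−0.41, the next −0.053). TGFβ1 replicate 4 was low for ME1 (−0.24, the next 0.055). SRXN1 was still called without vehicle replicate 2, and the other 6 genes were not called with all arrays.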

How the results depend on the processing

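The 6 falls were also called after quantile normalisation again, after a shift to equal medians, with array weights, with the replicate block, from the probe with the largest SD and without any 1 array, and SAM made 5 of these calls, without AKR1C3. At an adjusted p under 0.01 AKR1C3 was lost as well. The 2 higher enzymes became 1 with the replicate block, 0 in SAM and 0 at an adjusted p under 0.01, and 0 to 1 without each array in turn. The count of other enzymes that were lower went from 0 to 1 (CAT) with the probe of the largest SD, and was 0 to 1 without each array. The 2 higher probes became 1 with the block, 1 in SAM and 0 at an adjusted p under 0.01, and were 1 to 2 without each array, while lower probes were 5 to 9. The count of lower targets, 6, was 6 to 7 without each array. PGD was added with array weights and without TGFβ1 replicate 4 (adjusted p = 0.026), and CAT without TGFβ1 replicate 3 (adjusted p = 0.020). Changes near 0 turned sign in genes that were never called in these settings. With the probe of the largest SD, KEAP1 read 0.0040 and TALDO1 0.060. ME1 read 0.0065 after quantile normalisation and 0.028 with array weights, which put GPX2 at 0.0013 and SOD1 at 0.010. Without each array, ranges crossed 0 for KEAP1 (−0.048 to 0.019), TALDO1 (−0.083 to 0.022), ME1 (−0.042 to 0.072), GSTP1 (−0.078 to 0.18), GPX2 (−0.060 to 0.037), GPX3 (−0.091 to 0.049), PRDX1 (−0.034 to 0.023), PRDX6 (−0.12 to 0.00041) and SOD1 (−0.054 to 0.015). The cause was not tested. Replicate numbers showed no sign of pairing the wells, although so few arrays cannot exclude it. Deviations of same-numbered wells correlated at −0.040 to 0.026 over genes, and those of other pairs at −0.0325 to 0.0665. Of 8 arrays, 2 correlated best with their own number. The replicate block gave 1026 called genes against 1143 without it, and ended the calls of PRDX4 (adjusted p = 0.074), SLC3A2 (0.059) and PRXL2B (0.081).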

Other observations

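Sources of oxidants and iron were also read. Of 14 measured subunits of NADPH oxidases, which make superoxide, 0 were called in limma or in SAM, with 1 lower at an unadjusted p under 0.05, and their changes ran from −0.14 to 0.17. Among 12 genes of iron handling 2 were higher and 1 was lower, where 3.03% of all genes were higher and 2.67% lower, and SAM gave the same counts. At an unadjusted p under 0.05 there were 2 higher and 4 lower, where 3135 of all 20045 genes passed, 1612 of them lower. ACO1, which as iron regulatory protein controls ferritin and transferrin receptor mRNAs, rose by 0.62 (SE 0.10, adjusted p = 0.0018 in limma). STEAP3, a ferric reductase of endosomes, rose by 0.27 (SE 0.058, adjusted p = 0.012), on 1 of its 3 probes (0.58, against 0.12 and 0.11). PCBP1, an iron chaperone that loads ferritin, fell by 0.35 (SE 0.054, adjusted p = 0.0013).

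The 15 ATF4 targets, of which CHAC1 and SESN2 also stand in the glutathione and thiol repair lists, had 3 lower and 1 higher, against the same shares of all genes. At an unadjusted p under 0.05 there were 7 lower and 2 higher, where 3135 of all 20045 genes passed, 1612 of them lower. SAM called 2 lower and 1 higher. ASNS, asparagine synthetase, fell by 0.38 (SE 0.058, adjusted p = 0.00097 in limma). VLDLR, a lipoprotein receptor, fell by 0.31 (SE 0.072, adjusted p = 0.019) and PSAT1, of serine synthesis, by 0.29 (SE 0.059, adjusted p = 0.0093). Each had 1 of its 2 probes called. The probes read −0.49 against −0.28 for ASNS, −0.45 against −0.18 for VLDLR and −0.61 against 0.037 for PSAT1. CEBPB, a transcription factor, rose by 0.43 (SE 0.087, adjusted p = 0.0082). The call of VLDLR ended without vehicle replicate 3 or 4 (highest adjusted p = 0.064), and SAM did not make it.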
